A study of Mus musculus with 12 samples.

Results

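Proteasome subunits and assembly factors were taken from the gene counts as all symbols that begin with Psm, a letter from a to g and a digit, which gave 50 of 12960 genes. Of these, 8 encode alpha ring subunits, 7 beta ring subunits, 3 immunoproteasome subunits, 6 ATPases of the 19S cap, 11 other subunits of the cap, 5 activators or inhibitors, 4 assembly factors of the 20S core and 3 of the 19S cap. The remaining 3 symbols were counted with the rule and kept out of these classes. *Psmc3ip* encodes a recombination protein and is no proteasome gene, *Psme2b* is a near copy of *Psme2* with which reads may have been shared, and *Psme3ip1* is named for binding the product of *Psme3*. All 50 passed the filter on low counts.

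The proteasome is the protease that breaks down proteins tagged with ubiquitin. Its 20S core is a stack of outer alpha rings, which gate the entry, and inner beta rings, which hold the active sites. The 19S cap binds the core at its end, recognizes ubiquitin, removes it and threads the substrate inward with a ring of ATPases. Other regulators (PA28, PA200, PI31) can bind the core in place of the cap, and dedicated chaperones assemble both particles. In macrophages and other cells that present antigen, interferon exchanges the catalytic beta subunits for the immunoproteasome subunits *Psmb8*, *Psmb9* and *Psmb10*, which alters the peptides offered on MHC class I. The transcription factor NRF1 raises proteasome genes together when proteasome activity is short.

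Counts came from RNA sequencing of bone marrow-derived macrophages (BMDMs) of WT mice and of mice that lack AMPKβ1 in the whole body (AMPKβ1-/-), the regulatory subunit through which PF-06409577 (PF), a small molecule activator, acts on AMPK. Marrow of tibia and femur was differentiated for 7 days in DMEM with serum and L929 medium as the source of M-CSF, and the cells then received vehicle (0.1% DMSO) or 10 μM PF for 6 h. The 4 groups (WT vehicle, WT PF, AMPKβ1-/- vehicle and AMPKβ1-/- PF) had 3 libraries each. It is not stated whether the libraries of a group came from separate mice, so p values here measure the spread between these libraries, which may be technical.

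The libraries held between 8935609 and 14358180 counts, so that a floor of 3 counts corresponds to 0.196 to 0.321 CPM (counts per 1000000 of the TMM-normalized library size). This floor covers counting error only. *Prkab1*, which encodes AMPKβ1, had 37.3 to 45.3 CPM in the WT libraries and 6.04 to 9.42 CPM in the AMPKβ1-/- libraries, a log2 fold change of −2.57 with vehicle (SE 0.12, adjusted p = 8.85e-09, edgeR). All 9 macrophage markers were above the floor in every library, with a summed level of 29362 to 33614 CPM. Of 6 markers of T or NK cells 2 were measured (*Cd4*, and *Cd3d*, which never exceeded the floor), and they summed to 12.7 to 14.2 CPM in WT and 5.65 to 6.57 CPM in AMPKβ1-/- libraries, and their part in the results below was not tested. The summed level of 3 endothelial markers was 25.1 to 36.0 CPM in WT PF and 12.9 to 15.5 CPM in AMPKβ1-/- PF libraries, and that of 4 fibroblast markers was 0.923 to 1.59 CPM in WT vehicle and 2.02 to 7.74 CPM in AMPKβ1-/- vehicle libraries. Their part was not tested either. The libraries also differed in how gene levels followed the GC content of the transcript, with slopes of 0.359 to 0.721 (log2 per 10 percentage points of GC) for WT vehicle, −0.051 to 0.368 for WT PF, −0.357 to −0.101 for AMPKβ1-/- vehicle and −0.513 to −0.332 for AMPKβ1-/- PF. Since these slopes move with genotype and treatment, the counts of calls and the main values of each comparison are given also with the trend in GC content and length removed. In bulk RNA, fewer cells of a type and less RNA per cell cannot be told apart.

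The 50 genes together took 0.432% to 0.531% of the counts of a library. Their share was 0.461% to 0.512% with vehicle and 0.518% to 0.531% with PF in WT BMDMs, and the libraries of these groups did not overlap. In AMPKβ1-/- BMDMs it was 0.449% to 0.468% with vehicle and 0.432% to 0.458% with PF, and these groups overlapped. These are shares of raw counts, before TMM scaling. The TMM factors were 0.881 to 0.939 in WT vehicle and 0.936 to 0.995 in WT PF libraries. Once the totals are scaled by these factors, the shares of the WT groups overlap as well.

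The upstream sequences of 6 members are shown, because 5 of them (*Psma1*, *Psma2*, *Psma3*, *Psma4* and *Psmd6*) were the members that passed the test with PF in WT BMDMs and *Psmb6* had the highest level per length. The sequences are from RefSeq on GRCm38.p6 and run 5′ to 3′ toward the gene, ending before the first base of the gene in RefSeq and in GENCODE M21. They lie at chr7:114276119-114276366 (minus strand) for *Psma1*, chr13:14612992-14613239 (plus) for *Psma2*, chr12:70974373-70974620 (plus) for *Psma3*, chr9:54950609-54950789 (plus) for *Psma4*, chr14:14120985-14121195 (minus) for *Psmd6* and chr11:70525107-70525356 (plus) for *Psmb6*. Capitals mark matches on either strand to the CCAAT box (CCAAT, or ATTGG on the other strand) and to 2 forms of the antioxidant response element core (TGACNNNGC and TGAGNNNGC), the kind of element that NRF1 and NRF2 bind.
*Psma1*: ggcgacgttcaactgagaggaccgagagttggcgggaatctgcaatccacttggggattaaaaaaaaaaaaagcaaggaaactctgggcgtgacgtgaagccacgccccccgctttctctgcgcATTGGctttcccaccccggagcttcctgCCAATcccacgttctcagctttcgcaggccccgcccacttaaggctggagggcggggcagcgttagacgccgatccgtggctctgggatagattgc
*Psma2*: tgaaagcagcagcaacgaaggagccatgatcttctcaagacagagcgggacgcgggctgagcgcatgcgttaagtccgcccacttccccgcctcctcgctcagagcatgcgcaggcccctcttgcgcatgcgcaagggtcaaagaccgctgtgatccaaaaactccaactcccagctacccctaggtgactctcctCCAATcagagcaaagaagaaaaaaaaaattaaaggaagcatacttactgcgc
*Psma3*: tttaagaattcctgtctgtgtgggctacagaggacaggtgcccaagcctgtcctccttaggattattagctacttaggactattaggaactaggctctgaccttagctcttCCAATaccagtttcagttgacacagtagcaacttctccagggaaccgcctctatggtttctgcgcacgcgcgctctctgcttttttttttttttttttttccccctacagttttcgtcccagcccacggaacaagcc
*Psma4*: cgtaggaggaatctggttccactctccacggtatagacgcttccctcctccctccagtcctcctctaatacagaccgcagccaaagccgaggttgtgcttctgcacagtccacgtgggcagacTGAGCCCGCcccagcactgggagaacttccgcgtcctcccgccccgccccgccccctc
*Psmd6*: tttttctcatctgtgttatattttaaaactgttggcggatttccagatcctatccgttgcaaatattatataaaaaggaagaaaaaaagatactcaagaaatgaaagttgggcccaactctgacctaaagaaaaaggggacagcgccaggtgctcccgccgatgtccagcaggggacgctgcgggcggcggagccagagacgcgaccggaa
*Psmb6*: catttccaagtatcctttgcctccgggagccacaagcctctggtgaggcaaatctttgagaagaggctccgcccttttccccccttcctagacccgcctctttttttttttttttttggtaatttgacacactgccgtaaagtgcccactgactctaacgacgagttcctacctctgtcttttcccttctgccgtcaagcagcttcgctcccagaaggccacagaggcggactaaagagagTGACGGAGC

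Among 42 members with a sequence, 14 (33.3%) held a CCAAT box in the 250 bases before the start, against 34.5% of all 27025 promoters. By class it was found in 5 of 7 alpha ring genes, among them *Psma1*, *Psma2* and *Psma3*, in 1 of 4 beta ring genes and in 1 of 3 immunoproteasome genes. The core TGACNNNGC was found in 5 members (11.9%, against 10.1% of all promoters), namely the beta ring genes *Psmb5* and *Psmb6* and *Psmc6*, *Psmd9* and *Psmd12* of the cap and its assembly. The core TGAGNNNGC was found in 9 members (21.4%, against 14.2%), *Psma4* and *Psma6* among them. A core of the interferon-stimulated response element (GAAA, any 2 bases and GAAA again) was found in 3 members (*Psmb3*, *Psmd4* and *Psmd9*; 7.14%, against 3.04%) and in none of the 3 immunoproteasome genes, within this window. The promoter of *Psmd6* held none of these letters. These matches describe the sequences and do not show that a factor is bound. The start used was the first one listed in RefSeq. For *Psmb8*, *Psmb9*, *Psmd9* and some other members the window lay inside the gene as GENCODE M21 annotates it. Matches and missing matches there may thus not describe the promoter. For 37 of the 42 members the bases after the start were found in a GENCODE M21 transcript.

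The subunits of one complex differed widely in transcript level. Per length of transcript, *Psmb6*, which carries the caspase-like site of the constitutive core, was highest with 295 ± 46.5 CPM per kb (SD, n = 3) in WT BMDMs with vehicle. Next were *Psmd8*, a subunit of the lid of the 19S cap (245 ± 34.6), and *Psme1*, the alpha subunit of the PA28 activator (239 CPM per kb). The means of *Psmb6* and *Psmd8* differed by more than the SD of either gene, and those of *Psmd8* and *Psme1* by less. The beta ring (median 158, from 75.7 for *Psmb1* to *Psmb6*) lay above the alpha ring (median 38.4), whose highest gene was *Psma7* (159). In AMPKβ1-/- vehicle libraries the middle beta ring gene was *Psmb3* (111), and the middle alpha ring genes were *Psma4* and *Psma5* (50.8 and 54.3). Levels were not corrected for GC content, whose slope was steepest in WT vehicle and whose median was 52.2% in the beta and 44.5% in the alpha ring. Each length is that of 1 transcript of the gene. The immunoproteasome subunits had 162 ± 10.4 (*Psmb8*), 132 ± 5.85 (*Psmb10*) and 80.2 ± 4.76 CPM per kb (*Psmb9*), in the range of the constitutive beta ring.

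The ATPases of the cap ran from 2.63 CPM per kb for *Psmc6* to 147 for *Psmc3*, and its other subunits from 13.3 for *Psmd14*, the deubiquitinase of the lid, to *Psmd8*. Assembly factors were low throughout. Those of the core ran from 10.9 (*Psmg2*) to 23.8 CPM per kb (*Psmg3*) and those of the cap from 8.12 (*Psmd5*) to 18.6 (*Psmd9*). At the low end stood *Psme4*, which encodes the activator PA200 (2.61), and *Psma8*, the alpha subunit known from testis (0.228), which had only 2 to 7 counts in a WT vehicle library.

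**Figure D1:**
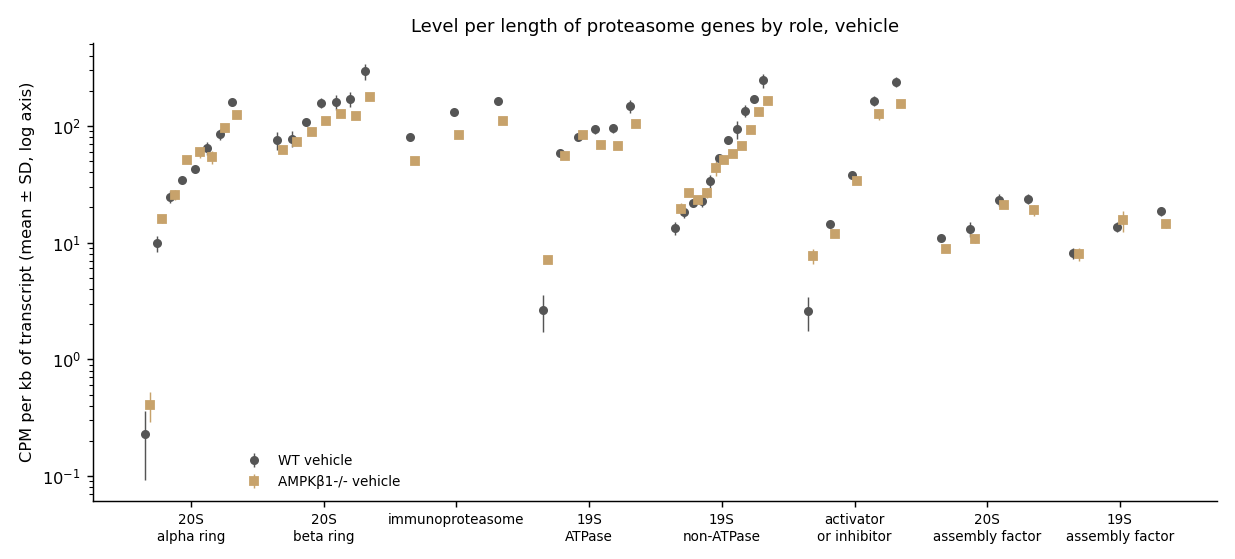
Level of each proteasome gene per kb of transcript (CPM per kb, mean ± SD of 3 libraries, log axis) by class, in WT (circles) and AMPKβ1-/- (squares) BMDMs with vehicle. *Psmb6* is highest at 295 and *Psma8* lowest at 0.228 CPM per kb in WT, and the 7 assembly factors lie below 24.

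The first comparison asked which proteasome genes responded to PF in WT BMDMs. With PF, 5 of 50 members were higher at an adjusted p below 0.05 and 0 were lower. Of these 5, 4 are alpha ring genes (*Psma1*, *Psma2*, *Psma3* and *Psma4*, of 8 in the ring) and 1 is *Psmd6*, a subunit of the lid of the 19S cap. Over all 10822 genes tested 6.99% were called higher and 8.95% lower, so the share of members called higher, 5 of 50, was near the background. None of the 5 called members passed the log2 threshold of 0.8 of the study, where 1.16% of all genes were called past it upward and 0.370% downward. *Psma8* (0.88) and *Psme2b* (−0.92) lay past 0.8 but were not called.

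*Psma4* had 41.1, 40.0 and 37.9 CPM with vehicle and 49.5, 59.2 and 58.7 CPM with PF in WT BMDMs. Every PF library lay above every vehicle library, and the log2 fold change was 0.49 (SE 0.09, adjusted p = 0.00424, edgeR). In AMPKβ1-/- BMDMs the same gene had 55.0, 62.0 and 60.4 CPM with vehicle and 52.0, 51.9 and 50.5 CPM with PF. The order of the groups was turned round there, but this change within AMPKβ1-/- BMDMs was not called. *Psmd6* had 22.4, 25.6 and 28.2 CPM with vehicle and 34.3, 39.3 and 34.7 CPM with PF in WT, without overlap, and rose by 0.51 on the log2 scale (SE 0.10, adjusted p = 0.00587, edgeR). In AMPKβ1-/- BMDMs *Psmd6* lay between 35.5 and 37.8 CPM in all 6 libraries, within the range of the WT PF libraries.

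*Psma1* had 50.3, 52.4 and 51.5 CPM with vehicle and 59.4, 64.8 and 69.0 CPM with PF in WT BMDMs. In AMPKβ1-/- BMDMs it had 63.6, 72.1 and 77.6 CPM with vehicle and 70.2, 71.1 and 70.7 CPM with PF. The WT groups did not overlap (log2 fold change 0.32, SE 0.09, adjusted p = 0.0248, edgeR), while the AMPKβ1-/- groups did. *Psma2* had 70.3, 80.6 and 64.2 CPM with vehicle and 87.3, 93.2 and 88.4 CPM with PF in WT, against 66.9, 76.3 and 81.8 CPM and 72.3, 75.3 and 68.1 CPM in AMPKβ1-/- BMDMs. Its 3 WT PF libraries were the highest of all 12 (log2 fold change in WT 0.32, SE 0.10, adjusted p = 0.0364, edgeR). *Psma3* had 24.05, 27.7 and 32.3 CPM with vehicle and 35.7, 33.3 and 44.0 CPM with PF in WT, against 41.6, 47.4 and 47.3 CPM and 44.1, 36.8 and 43.4 CPM in AMPKβ1-/- BMDMs. The WT groups were close but did not overlap (0.43, SE 0.13, adjusted p = 0.0377, edgeR).

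**Figure D2:**
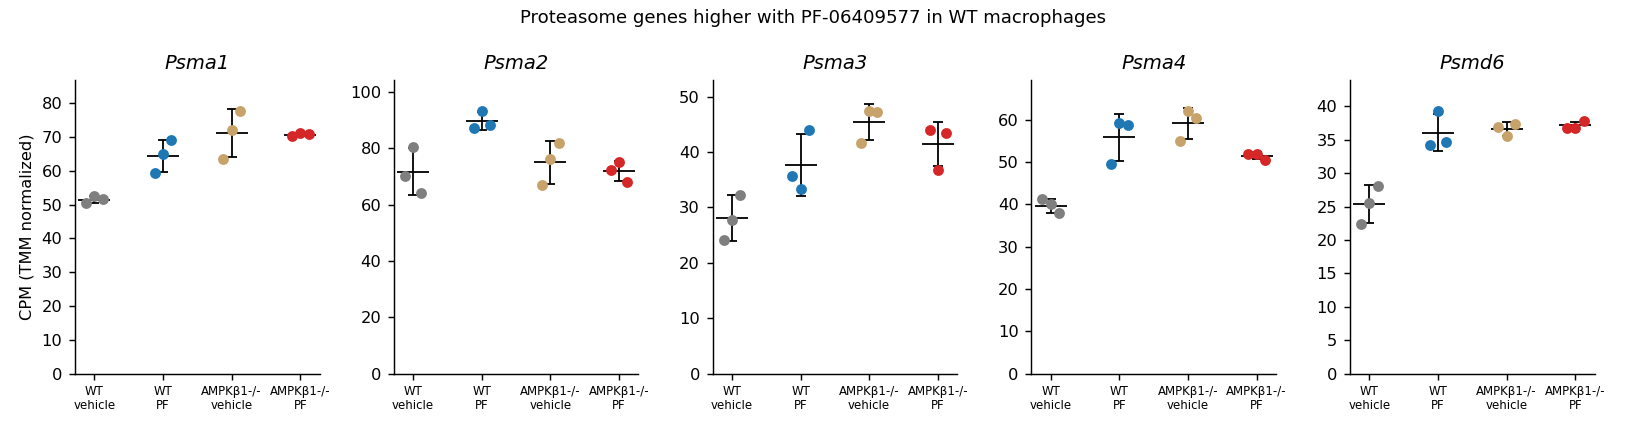
CPM of the 5 members called with PF in WT BMDMs in each of the 12 libraries (points), with the mean and SD of each group of 3 libraries. In WT the PF libraries lie above the vehicle libraries for all 5 genes, and every AMPKβ1-/- library lies above every WT vehicle library for 4 of them, the exception being *Psma2*. The 5 genes were chosen by their difference from these same WT vehicle libraries. The share of all genes with such a lack of overlap was not taken.

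All 5 calls depended on the GC trend, and 3 of them on single libraries. Their transcripts have a GC content of 39.4% to 47.1%, against a median of 51.3% over the other 45 members, and across the 50 members the log2 fold change fell with GC content (Spearman −0.73, across genes that share the same libraries, against −0.71 across 10780 genes). Once the trend in GC and length was removed, none of the 5 was called, although *Psma4* was when GC and length were averaged over coding transcripts and *Psmd6* was when the trend in GC alone was removed. With the trend in GC and length removed the log2 fold changes were 0.14 for *Psma4* (adjusted p = 0.249), 0.31 for *Psmd6* (adjusted p = 0.0683), 0.04 for *Psma3* (adjusted p = 0.869) and −0.07 for both *Psma1* (adjusted p = 0.609) and *Psma2* (adjusted p = 0.775), from edgeR. Under that setting 2 other members were called higher, *Psmd8* (0.36, adjusted p = 0.00129) and *Psmb6* (0.23, adjusted p = 0.0187, edgeR), and 0 lower, where 4.08% of all genes were called higher and 2.52% lower. *Psma4* and *Psmd6* were called whichever WT library was left out (highest adjusted p 0.0298 and 0.0396), whereas each of *Psma1*, *Psma2* and *Psma3* lost its call without any 1 of WT PF libraries 2 and 3, WT vehicle library 1 and a further WT vehicle library (3 for *Psma1* and *Psma2*, 2 for *Psma3*; highest adjusted p 0.118, 0.124 and 0.186, edgeR). Through the shared estimate of the spread, *Psma2* was also lost without AMPKβ1-/- PF library 1 (adjusted p = 0.0519) and *Psma3* without AMPKβ1-/- PF library 3 (adjusted p = 0.0513, edgeR).

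The other members showed no call. In the alpha ring, the values of *Psma5*, *Psma6* and *Psma7* were 0.12, 0.15 and −0.05 on the log2 scale, and *Psma8*, near the floor, had 0.88 (SE 0.45, adjusted p = 0.176, edgeR). The beta ring ran from −0.03 (*Psmb3*) to 0.28 for *Psmb7*, which carries the trypsin-like site (SE 0.09, adjusted p = 0.0556, edgeR; its groups did not overlap). The immunoproteasome genes had −0.10 (*Psmb8*), −0.19 (*Psmb9*) and −0.16 (*Psmb10*), all below 0 and none called (adjusted p = 0.457, 0.196 and 0.277, edgeR). With the trend removed they ran from −0.03 to 0.11, and 2 of the 3 were above 0. In the 19S cap the values ran from −0.20 for *Psmd3* to 0.80 for *Psmc6*, an ATPase with 5.88 ± 2.03 CPM with vehicle and 10.3 ± 3.70 CPM with PF (SD, n = 3), whose groups overlapped (adjusted p = 0.0544, edgeR).

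Of the activators and inhibitors, *Psme1* and *Psme2*, whose products form the interferon-inducible PA28, had −0.16 and 0.01 on the log2 scale, and *Psme4* had 0.49 (SE 0.24, adjusted p = 0.162, edgeR). Assembly factors ran from −0.17 (*Psmg3*) to 0.20 for *Psmd10*, which encodes gankyrin. Across all 50 members the median log2 fold change was 0.053, against 0.0048 over all genes tested, and 29 were above 0. By class the median was 0.32 in the alpha ring, 0.088 in the beta ring, −0.16 for the immunoproteasome, −0.050 for the ATPases, 0.11 for the other cap subunits and 0.068 for the 7 assembly factors. With the trend removed the medians of the alpha ring, the beta ring and the immunoproteasome were −0.0083, 0.15 and 0.022, against 0.041 over all genes. At an unadjusted p below 0.05, 11 members were higher and 2 lower (*Psmd3* and *Psme2b*), and DESeq2 called 9 higher and 1 lower (*Psme2b*, adjusted p = 0.0355). Shares over all genes were not taken for unadjusted p or for DESeq2, here and below. These counts were thus not compared with a background.

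PF was next compared with vehicle in AMPKβ1-/- BMDMs, which lack the subunit the compound acts through. No member was called in either direction by edgeR, with 2 higher (*Psmc6* and *Psma8*) and 1 lower (*Psma4*) at an unadjusted p below 0.05 and 0 called by DESeq2. Over all genes 0.0554% were called higher and 0% lower. The median log2 fold change was −0.058 over the members and −0.0040 over all genes. All 7 beta ring genes and all 3 immunoproteasome genes had values below 0, from −0.19 (*Psmb8*) to −0.03, and so did 7 of 8 alpha ring genes. With the trend removed 4 of the 7 beta ring, 0 of the 3 immunoproteasome and 3 of the 8 alpha ring genes had values above 0, the median was 0.0091 over the members and 0.027 over all genes, and again no member was called (0.0277% of all genes higher and 0% lower). The lowest value among the alpha ring genes was that of *Psma4*, −0.20 (SE 0.09, adjusted p = 0.95, edgeR), and the highest among the ATPases that of *Psmc6*, 0.55 (SE 0.22, adjusted p = 0.899, edgeR).

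**Figure D3:**
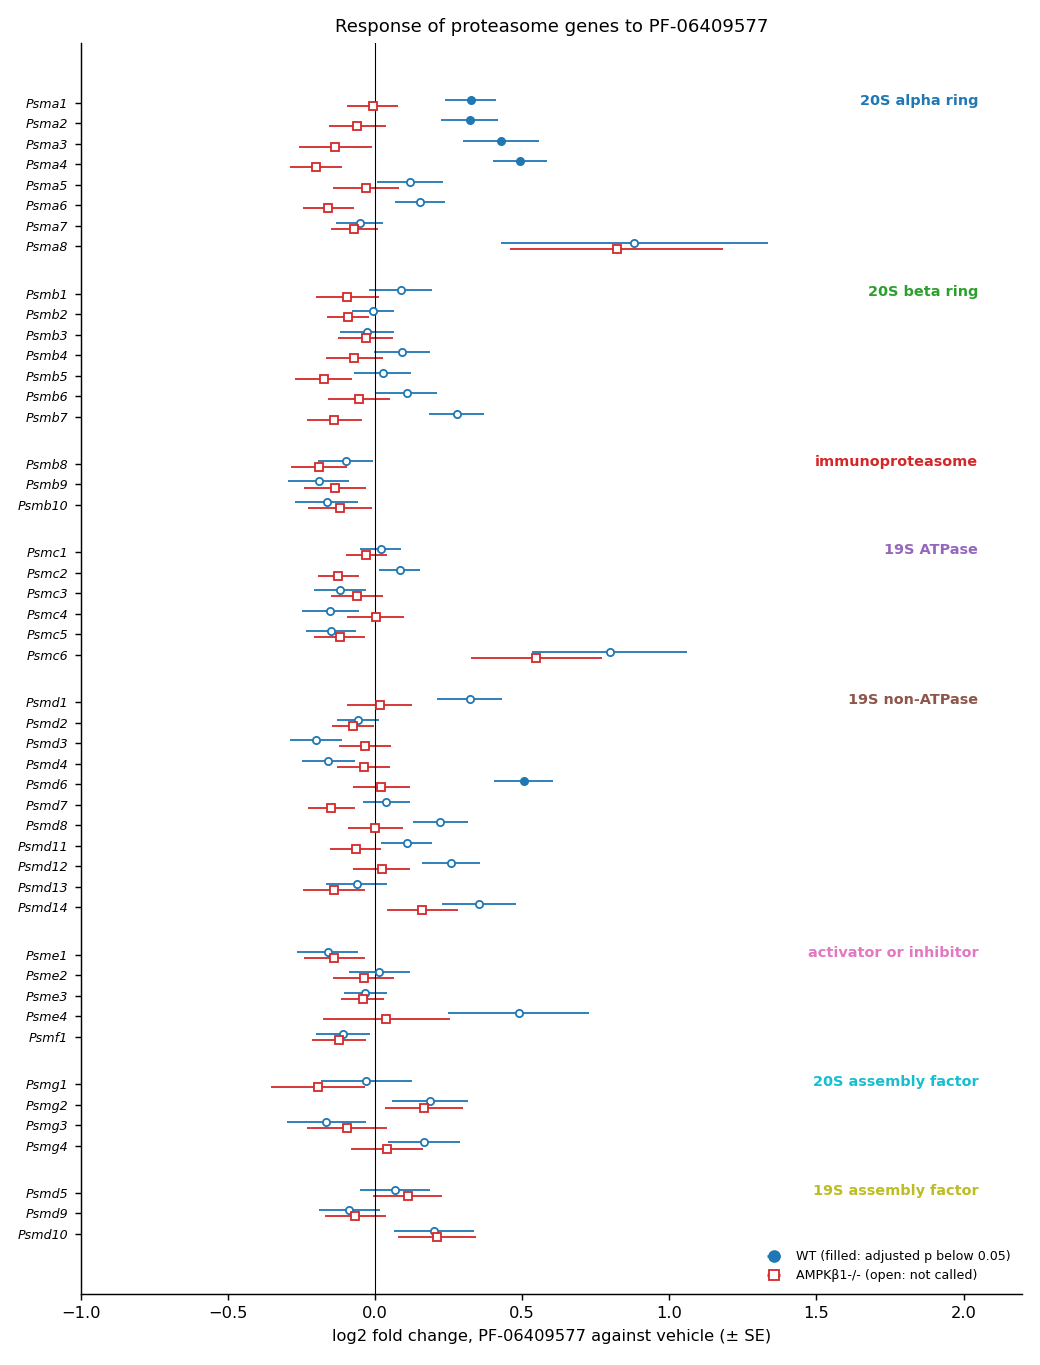
Log2 fold change of PF against vehicle (± SE) of 47 proteasome genes by class, in WT (circles) and AMPKβ1-/- BMDMs (squares). Filled symbols, with an adjusted p below 0.05, are *Psma1*, *Psma2*, *Psma3*, *Psma4* and *Psmd6* in WT, and 0 genes are filled in AMPKβ1-/- BMDMs.

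Whether the responses differed (WT minus AMPKβ1-/-) was tested in the same fit. The difference passed the test for 1 member, *Psma4*, with 0.69 on the log2 scale (SE 0.13, adjusted p = 0.0276, edgeR), where 0.176% of all genes were called higher and 0.240% lower. By group mean, *Psma4* was lowest in WT vehicle and highest in AMPKβ1-/- vehicle libraries. Once the trend was removed the difference was 0.36 (adjusted p = 0.0815, edgeR), but it was called when GC and length were averaged over coding transcripts. The call was lost without any 1 of 9 libraries and held without library 1 of WT vehicle, WT PF or AMPKβ1-/- vehicle (adjusted p from 0.00493 to 0.119 over the 12 libraries). The values of *Psma3* (0.56), *Psmd6* (0.48), *Psmb7* (0.41), *Psma2* (0.38) and *Psma1* (0.33) were not called (adjusted p = 0.177, 0.143, 0.182, 0.227 and 0.244, edgeR). All 8 alpha ring and all 7 beta ring genes had a value above 0, with medians of 0.32 and 0.16 against −0.0023 over all genes, and the immunoproteasome genes had −0.05 (*Psmb9*), −0.04 (*Psmb10*) and 0.09 (*Psmb8*). With the trend removed, 5 of the 8 and 4 of the 7 were above 0.

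AMPKβ1-/- and WT BMDMs were then compared with vehicle, a comparison that shares its WT libraries with that of PF in WT. It held more differences in the proteasome genes than either PF comparison. In AMPKβ1-/- BMDMs 23 members were lower and 8 higher, against 30.0% and 29.7% of all genes, so that the share called lower was above and the share called higher below the background. Past the log2 threshold were 2 members upward, where 16.1% of all genes passed, and 0 downward, where 1.76% passed. All 3 immunoproteasome genes and 6 of 7 beta ring genes were lower, while 3 alpha ring genes (*Psma1*, *Psma3* and *Psma4*) were higher and 1 (*Psma7*) lower. In the 19S cap 4 were higher (*Psmc6*, *Psmd1*, *Psmd6* and *Psmd14*) and 8 lower, and of the activators and inhibitors 1 was higher (*Psme4*) and 3 lower (*Psme1*, *Psme2* and *Psmf1*), as were 2 assembly factors, *Psmg3* and *Psmd9*. The call of *Psmg3* (adjusted p = 0.0433, edgeR) was lost with DESeq2 and with either other filter on low counts.

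The immunoproteasome genes were lower by a similar amount. *Psmb8*, which replaces *Psmb5* and is inserted as the chymotrypsin-like subunit, had 283, 252 and 257 CPM in WT and 188, 174 and 180 CPM in AMPKβ1-/- libraries (log2 fold change −0.55, SE 0.09, adjusted p = 0.000253, edgeR). *Psmb9*, which lies beside *Tap1* in the MHC locus, had 103, 107 and 116 CPM against 66.2, 68.1 and 70.0 CPM (−0.67, SE 0.10, adjusted p = 0.000142, edgeR). *Psmb10* had 172, 167 and 182 CPM against 110, 106 and 111 CPM (−0.67, SE 0.11, adjusted p = 0.000169, edgeR). For each of the 3 genes every AMPKβ1-/- library lay below every WT library. None of them was called once the trend in GC and length was removed, with values of −0.01 for *Psmb8*, −0.14 for *Psmb9* and −0.10 for *Psmb10* (adjusted p = 0.948, 0.219 and 0.343, edgeR). When GC and length were averaged over coding transcripts, *Psmb9* was called and *Psmb8* and *Psmb10* were not.

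Of the catalytic subunits they replace, *Psmb6* had 276, 227 and 203 CPM in WT and 139, 139 and 146 CPM in AMPKβ1-/- BMDMs. This was the largest fall among the members (−0.74, SE 0.11, adjusted p = 8.72e-05, edgeR), without overlap, and it was still called with the trend removed (−0.17, adjusted p = 0.0315, edgeR). *Psmb5*, which carries the chymotrypsin-like site, had 176, 148 and 134 CPM against 112, 104 and 110 CPM (−0.50, SE 0.10, adjusted p = 0.000571, edgeR). Its sign turned with the trend removed (0.09, adjusted p = 0.227, edgeR), where the median over all genes was 0.12. *Psmb7* had 104, 89.5 and 76.6 CPM against 83.8, 85.0 and 82.4 CPM, with overlap and no call (−0.11, adjusted p = 0.352, edgeR).

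Both subunits of PA28 were lower. *Psme1* had 295, 259 and 245 CPM in WT against 184, 166 and 169 CPM (−0.63, SE 0.10, adjusted p = 0.000202, edgeR), and *Psme2* had 164, 167 and 139 CPM against 107, 126 and 128 CPM (−0.38, SE 0.10, adjusted p = 0.00603, edgeR). The libraries of the 2 genotypes did not overlap for either gene. Neither was called with the trend removed, where *Psme1* had −0.09 and *Psme2* 0.07 (adjusted p = 0.286 and 0.54, edgeR) and the median over all genes was 0.12. *Psmd8* completed the 5 largest falls, from 371 ± 52.3 to 249 ± 11.8 CPM (SD, n = 3; −0.57, adjusted p = 0.000175, edgeR), with −0.10 once the trend was removed. It was still called when GC and length were averaged over coding transcripts.

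The largest rise was that of *Psme4*, from 16.9 ± 5.46 to 49.8 ± 7.07 CPM (SD, n = 3), 2.92-fold. This rise of 1.55 on the log2 scale (SE 0.23, adjusted p = 0.000175, edgeR) was called also at the 0.81 that was left with the trend removed (adjusted p = 0.000505). *Psmc6* rose from 5.88 ± 2.03 to 15.8 ± 0.56 CPM (1.42, SE 0.26, adjusted p = 0.000442, edgeR), was the member with the lowest GC content (37.0%), and had 0.21 with the trend removed (adjusted p = 0.425). It was still called when GC and length were averaged over coding transcripts. *Psma3* rose by 0.70 (SE 0.13, adjusted p = 0.000389, edgeR) and had −0.17 with the trend removed. The remaining 2 of the 5 largest rises were *Psma4*, with 0.58 (SE 0.09, adjusted p = 0.000142), and *Psmd14*, with 0.55 (SE 0.12, adjusted p = 0.00167, edgeR). Of these, *Psma4* was still called with the trend removed (0.30, adjusted p = 0.00377) and *Psmd14* was not (0.03, adjusted p = 0.856, edgeR). With the trend in GC alone removed *Psma4* lost its call too (0.14, adjusted p = 0.176, edgeR), where the median over all genes was 0.11.

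The direction of this difference followed the GC content of the genes. The 23 members called lower had a median GC content of 53.6% and the 8 called higher one of 43.9%. Across the 50 members the Spearman correlation of the log2 fold change with GC content was −0.86 (−0.77 across all genes), and 0.0061 without the trend. Alpha ring transcripts had a median GC content of 44.5%, beta ring transcripts 52.2% and immunoproteasome transcripts 55.8%. After removal of the trend, 8 members were higher and 7 lower, against 26.2% and 10.2% of all genes, and 8 of the 31 members called before were among these 15. *Psma2*, not called before (0.06), then had −0.96, the lowest value of all members. That setting moved the median over all genes from −0.026 to 0.12, and the median over the members from −0.27 to 0.039. With scaling by library size alone the median over all genes was 0.18, and 14 members were higher and 15 lower. Shares over all genes were not taken for that scaling. *Psme4*, *Psmd6* (0.53) and *Psma4* stayed above the shifted median with the trend removed, and *Psmb6* stayed below it. The call of *Psma4* was lost when the trend in GC alone was removed.

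**Figure D4:**
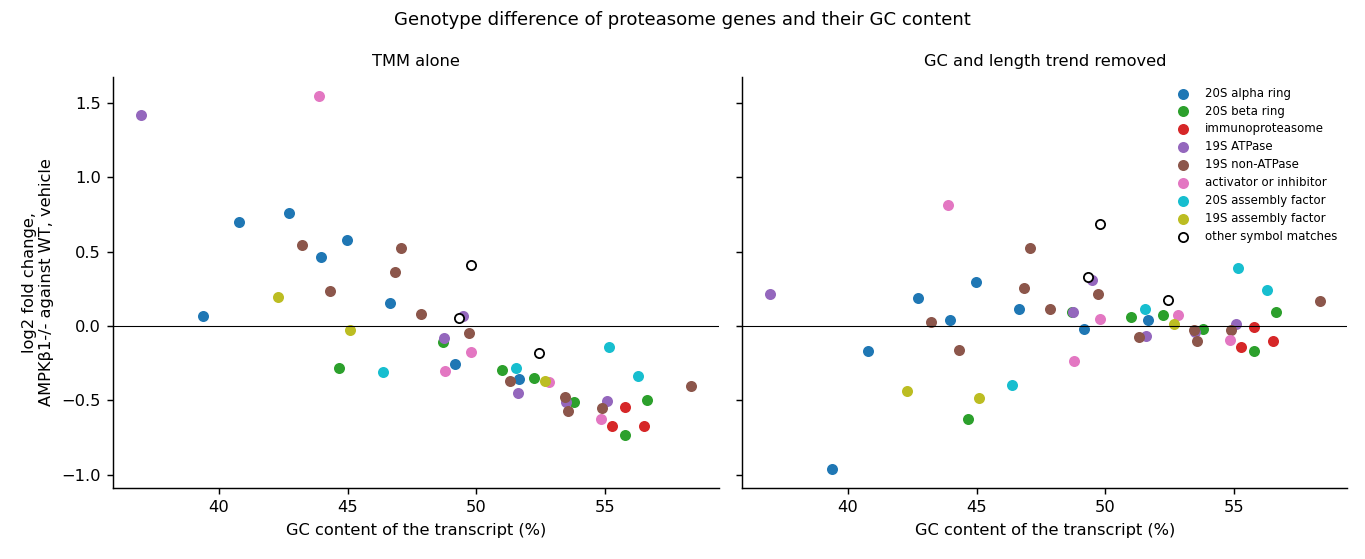
Log2 fold change of AMPKβ1-/- against WT BMDMs with vehicle (y axis) against the GC content of the transcript (x axis, %) for the 50 members, colored by class, as scaled by TMM (left) and after removal of the GC and length trend (right). The points fall with GC content on the left (Spearman −0.86) and not on the right (0.0061).

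With PF in both genotypes, 30 members were lower and 4 higher in AMPKβ1-/- BMDMs, against 22.9% and 24.1% of all genes. Past the log2 threshold were 1 member downward (2.06% of all genes) and 3 upward (12.2%). The comparison shares no library with that of the vehicle groups, but it shares the estimate of the spread, and the cells may come from the same mice. All 7 beta ring and all 3 immunoproteasome genes were lower, where 6 of the 7 and all 3 were with vehicle. With the GC and length trend removed, 2 of the 7 and 1 of the 3 were called lower with PF, and 2 of the 7 and 0 of the 3 with vehicle. The alpha ring had 3 members called lower (*Psma2*, *Psma5* and *Psma7*) and 0 higher. The cap had 10 lower and 2 higher (*Psmc6* and *Psmd14*), and activators and inhibitors had 4 lower (*Psme1*, *Psme2*, *Psme3* and *Psmf1*) and 1 higher (*Psme4*). Of the assembly factors *Psmd9*, *Psmg1* and *Psmg2* were lower. The calls of *Psme3* and *Psmg2* (adjusted p = 0.0486 and 0.0477, edgeR) were lost with DESeq2 and with either other filter on low counts.

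*Psmb6* had 264, 269 and 228 CPM in WT PF and 134, 149 and 126 CPM in AMPKβ1-/- PF libraries, and was the one member past the threshold downward (−0.90, SE 0.11, adjusted p = 1.48e-05, edgeR). *Psmd8* followed with −0.79 (SE 0.09, adjusted p = 1.49e-05, edgeR), from 458, 428 and 411 CPM to 255, 259 and 234 CPM. Both were called with the trend removed, at −0.33 (adjusted p = 0.000232) and −0.38 (adjusted p = 0.000131, edgeR). *Psmb5* had 159, 168 and 140 CPM against 97.7, 97.0 and 93.0 CPM (−0.70, SE 0.10, adjusted p = 6.23e-05, edgeR), and −0.15 with the trend removed (adjusted p = 0.0552). *Psmb7*, not called with vehicle, had 105, 113 and 109 CPM against 73.8, 78.6 and 75.9 CPM without overlap (−0.52, SE 0.09, adjusted p = 0.000494, edgeR), and −0.16 with the trend removed (adjusted p = 0.0574). Both *Psmb5* and *Psmb7* were called when GC and length were averaged over coding transcripts or the trend in GC alone was removed.

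*Psmb8* had 274, 245 and 221 CPM in WT PF and 158, 176 and 140 CPM in AMPKβ1-/- PF libraries (−0.64, SE 0.09, adjusted p = 0.000102, edgeR). It was the one immunoproteasome gene that was still called with the GC and length trend removed (−0.22, adjusted p = 0.00478, edgeR). All 3 were called when GC and length were averaged over coding transcripts or the trend in GC alone was removed. *Psmb9* had 107, 97.6 and 80.7 CPM against 61.1, 69.1 and 55.4 CPM (−0.62, SE 0.10, adjusted p = 0.000309, edgeR), and *Psmb10* had 177, 157 and 131 CPM against 106, 110 and 85.1 CPM (−0.63, SE 0.11, adjusted p = 0.000345, edgeR). For each of the 3 genes WT PF library 3 was the lowest of its group, and still above every AMPKβ1-/- PF library. *Psme1* had 255, 241 and 219 CPM against 166, 173 and 131 CPM (−0.60, SE 0.10, adjusted p = 0.000342, edgeR). *Psme2* had 175, 151 and 148 CPM against 121, 128 and 103 CPM (−0.43, SE 0.10, adjusted p = 0.00363, edgeR). Both lost their call with the GC and length trend removed (−0.11 and 0.07, against a median of 0.10 over all genes). When GC and length were averaged over coding transcripts or the trend in GC alone was removed, *Psme1* was called and *Psme2* was not.

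The 4 members that were higher were *Psme2b* (1.49, SE 0.33, adjusted p = 0.00266), *Psmc6* (1.17, SE 0.23, adjusted p = 0.0012), *Psme4* (1.10, SE 0.22, adjusted p = 0.00163) and *Psmd14* (0.35, SE 0.12, adjusted p = 0.0254, edgeR). *Psme2b* rested on 34 to 49 counts in a WT PF and 99 to 123 counts in an AMPKβ1-/- PF library. After removal of the trend *Psme2b* and *Psme4* were called at 1.95 and 0.54 (adjusted p = 0.000142 and 0.00396), while *Psmc6* had −0.14 and *Psmd14* 0.12 (adjusted p = 0.547 and 0.312, edgeR). When GC and length were averaged over coding transcripts, *Psmc6* was called and *Psme4* was not. *Psmd14* also lost its call without WT PF library 1 or 2 or AMPKβ1-/- PF library 1 or 3 (adjusted p of at most 0.113). *Psma2*, with −0.32 (SE 0.10, adjusted p = 0.0133, edgeR), went to −1.26 with the trend removed, at a GC content of 39.4%. In all, 6 members were then higher and 8 lower, against 27.3% and 11.6% of all genes, with a median of −0.020 over the members and 0.10 over all genes.

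Each immunoproteasome subunit takes the place of 1 constitutive subunit, so the log2 ratio of their CPM within a library was compared between groups. Per length of transcript, *Psmb8* was at 0.806 to 1.06 times the level of *Psmb5*, *Psmb9* at 0.209 to 0.335 times that of *Psmb6* and *Psmb10* at 0.992 to 2.099 times that of *Psmb7* over the 12 libraries. Of 12 comparisons (3 pairs in 4 contrasts) none had an adjusted p below 0.4 in exact two-sided permutation tests, where 3 against 3 libraries cannot give a p below 0.1. The log2 ratio of *Psmb8* to *Psmb5* was 0.80 ± 0.13 in WT vehicle, 0.66 ± 0.12 in WT PF, 0.74 ± 0.02 in AMPKβ1-/- vehicle and 0.71 ± 0.13 in AMPKβ1-/- PF libraries (SD, n = 3), and all groups overlapped.

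The ratio of *Psmb10* to *Psmb7* had the widest difference between the genotypes with vehicle. WT vehicle libraries had 0.72, 0.90 and 1.25 and AMPKβ1-/- vehicle libraries 0.39, 0.32 and 0.43, without overlap, a difference of −0.58 (exact permutation p = 0.1, the smallest possible, adjusted p = 0.4). That difference was −0.19 with the trend removed, and with PF in both genotypes it was −0.11 with overlap (exact permutation p = 0.6). With PF in WT the ratio was 0.75, 0.47 and 0.27, a difference of −0.46 from vehicle with overlap (exact permutation p = 0.2). The ratio of *Psmb9* to *Psmb6* was −1.31, −1.46 and −1.50 in WT PF and −1.13, −1.10 and −1.18 in AMPKβ1-/- PF libraries, a difference of 0.28 without overlap (exact permutation p = 0.1, adjusted p = 0.4), and 0.17 with the trend removed. In AMPKβ1-/- vehicle libraries it was −1.07, −1.03 and −1.06, so PF gave a difference of −0.09 there, again without overlap (exact permutation p = 0.1, adjusted p = 0.4). Between the genotypes with vehicle the difference of that ratio was 0.06 (exact permutation p = 0.7).

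**Figure D5:**
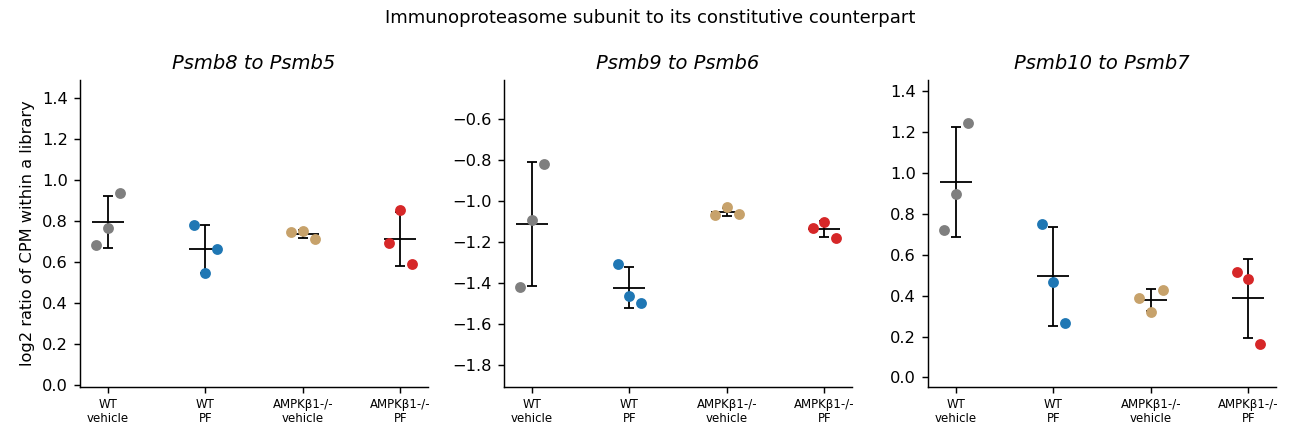
Log2 ratio of the CPM of *Psmb8* to *Psmb5*, *Psmb9* to *Psmb6* and *Psmb10* to *Psmb7* in each library (points), with the mean and SD of each group of 3 libraries and a range of its own for each axis. The WT vehicle libraries spread widely for *Psmb9* to *Psmb6*, from −1.42 to −0.82, and for *Psmb10* to *Psmb7*, from 0.72 to 1.25.

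Lists of genes around the proteasome were read in the same fit, and their counts stand beside shares over all genes of 6.99% higher and 8.95% lower with PF in WT, 29.7% and 30.0% between genotypes with vehicle, and 24.1% and 22.9% between genotypes with PF. Of 18 partners (ubiquitin receptors, shuttles, deubiquitinases and assembly factors outside the symbol rule), 4 were higher and 0 lower with PF in WT BMDMs. They were led by *Sem1*, a small subunit of the lid (0.66, adjusted p = 0.00728), *Usp14*, a deubiquitinase on the cap (0.54, adjusted p = 0.0141), and *Txnl1*, a thioredoxin-like protein of the cap (0.45, adjusted p = 0.0234), with *Zfand5*, which binds and stimulates the cap, as the last (0.57, adjusted p = 0.0293, edgeR). None of the 18 was called once the trend was removed. Of 9 genes of the NRF1 pathway, 1 was lower with PF in WT, *Nploc4*, a cofactor of the segregase VCP (−0.25, adjusted p = 0.0478, edgeR). This call was lost in 4 of 6 fits without 1 of the WT libraries and with the trend removed (−0.07, adjusted p = 0.512), where *Nfe2l1*, which encodes NRF1, was called higher instead (0.24, adjusted p = 0.0146, edgeR; named after its value was seen). Of 10 genes of interferon signaling and peptide loading, 1 was higher, *Erap1*, which trims peptides for MHC class I (0.66, adjusted p = 0.0317, edgeR). With the trend removed *Erap1* had 0.32 (adjusted p = 0.135), and *B2m*, the gene of β2-microglobulin, was called lower (−0.33, adjusted p = 0.00907, edgeR; named after its value was seen). No gene of the 3 lists was called with PF in AMPKβ1-/- BMDMs or in the difference between the responses.

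Between the genotypes with vehicle, 6 partners were higher and 4 lower in AMPKβ1-/- BMDMs, led by *Ecpas*, an adaptor of the proteasome (0.85, adjusted p = 0.000116), *Zfand5* (0.91, adjusted p = 0.000305), and *Ubqln2*, a ubiquitin shuttle (0.58, adjusted p = 0.000677, edgeR). Without the trend *Ecpas* had 0.13, *Zfand5* was lower (−0.34, adjusted p = 0.00345) and *Ubqln2* higher (0.80, adjusted p = 0.00024, edgeR). In the NRF1 pathway 2 genes were higher and 1 lower, among them *Ngly1*, which deglycosylates NRF1 (1.03, adjusted p = 0.00167), *Nfe2l2*, which encodes NRF2 (0.44, adjusted p = 0.0127), and *Nploc4* (−0.26, adjusted p = 0.0137, edgeR). Of the interferon and peptide loading genes 6 were lower and 1 higher. *Irf9*, a subunit of the interferon-activated factor ISGF3, fell by 0.47 (adjusted p = 0.00061), *Tap1*, the peptide transporter, fell by 0.80 (adjusted p = 0.00144), and *Erap1* rose by 0.91 (adjusted p = 0.00103, edgeR). Without the trend these 3 had −0.14 (*Irf9*), −0.29 (*Tap1*) and −0.08 (*Erap1*) and none was called, and 1 of the 10 was, *B2m* (−0.98, adjusted p = 4.53e-07, edgeR), named after its value was seen.

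With PF in both genotypes, 4 partners were higher and 5 lower, led by *Fbxo7*, which binds PI31 (−0.45, adjusted p = 0.00222), *Ecpas* (0.55, adjusted p = 0.00242) and *Zfand5* (0.64, adjusted p = 0.00368, edgeR). Both called NRF1 pathway genes were higher, *Ngly1* (0.77, adjusted p = 0.00874) and *Ddi2*, the protease that activates NRF1 (0.37, adjusted p = 0.0263, edgeR). Of the interferon and peptide loading genes 7 were lower, with *Irf9* (−0.42, adjusted p = 0.00192), *Tapbp*, which encodes tapasin (−0.45, adjusted p = 0.0037), and *Irf1* (−0.60, adjusted p = 0.00429, edgeR) in front. Without the trend none of these 3 was called (adjusted p = 0.0696, 0.145 and 0.0802, edgeR). Other members of the list were, and 4 of the 10 were then lower and 0 higher, among them *B2m* (−0.79, adjusted p = 5.85e-07) and *Erap1* (−0.45, adjusted p = 0.00421, edgeR), both named after their values were seen. The median of the list was then −0.31, against 0.10 over all genes.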

How the data were processed

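RNA of BMDMs was sequenced by the authors as 12 directional libraries (4 groups of 3), and reads were trimmed with Trim Galore and quantified with Salmon. Versions, options and genome build are not given in the sources used here. The deposited values are Salmon's estimated counts per gene as whole numbers, without normalization. The columns name a group and a number, and the number only names a library. The study's own DESeq2 comparisons were not used.

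Counts were used as deposited in R 4.3.3 with edgeR 4.0.16 (robust quasi-likelihood test, TMM, filterByExpr, Benjamini-Hochberg over all 10822 genes tested), in a single fit of 4 group means, with calls at an adjusted p below 0.05. SE came from the F statistic. The log2 threshold of 0.8 is that of the study's methods. GC content and length were those of GENCODE M21 (GRCm38) transcripts, found for 12703 genes under the same symbol and 166 under an older one and lacking for 91. Their trend was fitted in each library by natural splines (df 5) and used as an offset of the fit. CPM carry no prior count, and log2 ratios of pairs used a prior of 2. DESeq2 1.42.0, other scalings and filters, the libraries of a contrast alone, a replicate block and leaving out each library were alternatives. On data simulated for PF in WT (10744 genes), 76% of genes changed 1.5-fold and 100% of those changed 2-fold were recovered. In each run 100 genes were changed, and 9 genes that were not changed were called. Folds below 1.5, such as those of the members called with PF in WT, were not simulated.

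The members and gene lists were chosen with earlier results of these data known. Values in every library were given for catalytic and immunoproteasome genes, PA28 and members called with PF, and statistics for the 5 largest genotype differences in each direction, the extremes of each class and the 3 smallest p of each list.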

Additional observations from a re-analysis of the deposited data

Results flagged for a closer look

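*Psma4* was the member whose response to PF differed between the genotypes by the test of the difference itself. The difference was 0.69 on the log2 scale (WT minus AMPKβ1-/-, SE 0.13, adjusted p = 0.0276, edgeR). The change with PF was 0.49 in WT and −0.20 in AMPKβ1-/- BMDMs, and only that in WT was called. After removal of the GC and length trend the difference was 0.36 (adjusted p = 0.0815, edgeR). DESeq2 gave an adjusted p of 0.000696, and leaving out 1 library at a time gave 0.00493 to 0.119.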

How the results depend on the processing

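The count of 5 members higher with PF in WT became 8 with library size alone, 9 with DESeq2, 2 with the GC and length trend removed (none of them among the 5) and 2 with the libraries of the contrast alone. With the trend in GC alone removed 4 were called, and 4 also with averages over coding transcripts, each time with 1 of the 5 among them. It was 2 to 9 with 1 library left out (2 without WT PF library 2 or 3, 3 without WT vehicle library 3, 9 without WT PF library 1). The count of 0 lower became 1 (*Psme2b*) with DESeq2 and ranged from 0 to 1 with 1 library left out. With PF in AMPKβ1-/- BMDMs the count of 0 higher became 1 with the libraries of the contrast alone. For the difference of the responses the count of 1 became 0 with the trend in GC and length, or in GC alone, removed and ranged from 0 to 1 with 1 library left out. Between genotypes with vehicle, 8 higher and 23 lower became 14 and 15 with library size alone, 8 and 7 without the GC and length trend, and 3 and 9 without the GC trend alone. With GC and length averaged over coding transcripts, 24 members were called there in either direction, and 14 of them were among the 31 called before. Between genotypes with PF, 30 lower became 19 with library size alone and 8 without the GC and length trend. Counted in either direction, 34 calls became 14 without the GC and length trend, 26 without the GC trend alone and 25 with averages over coding transcripts. Of these, 9, 19 and 21 were among the 34. Removing the GC trend alone, or that in GC and length averaged over coding transcripts, was chosen after seeing the data.

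Some log2 fold changes turned sign. Without the GC and length trend they were −0.072 for *Psma1* and −0.066 for *Psma2* (PF in WT), −0.17 for *Psma3*, 0.093 for *Psmb5* and 0.071 for *Psme2* (genotype, vehicle), and −0.14 for *Psmc6* and 0.066 for *Psme2* (genotype, PF). The medians over all genes were then 0.12 (genotype, vehicle) and 0.10 (genotype, PF), so *Psmb5* and *Psme2* still lay below the median. With averages over transcripts they were −0.047 for *Psma2* (PF in WT), −0.057 for *Psma3*, −0.47 for *Psmd14* and 0.027 for *Psmb5* (genotype, vehicle), and −0.0895 for *Psme4* and −0.51 for *Psmd14* (genotype, PF). Without the GC trend alone they were −0.060 for *Psma2* (PF in WT), −0.27 for *Psma3* and −0.12 for *Psmd14* (genotype, vehicle), and −0.29 for *Psmc6* and −0.095 for *Psmd14* (genotype, PF). The ratio differences between genotypes with PF became −0.082 (*Psmb8* to *Psmb5*) and 8.35e-05 (*Psmb10* to *Psmb7*) without the trend. With 1 library left out the difference of *Psmb8* to *Psmb5* ran from −0.094 to 0.038 (PF in AMPKβ1-/-), −0.12 to 0.0096 (genotype, vehicle) and −0.021 to 0.11 (genotype, PF), that of *Psmb9* to *Psmb6* from −0.099 to 0.20 (genotype, vehicle), and that of *Psmb10* to *Psmb7* from −0.056 to 0.12 (PF in AMPKβ1-/-) and −0.22 to 0.021 (genotype, PF). The cause was not tested beyond what each setting removes.

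Deviations of like-numbered libraries correlated between −0.17 and 0.32, so the numbers were not read as pairs. With a replicate block 7 members were higher with PF in WT, 8 were higher and 22 lower between genotypes with vehicle, and 4 were higher and 28 lower between genotypes with PF. *Psmg3* (vehicle) and *Psme3* and *Psmg2* (PF) lost their calls with it, as they did with DESeq2, with its size factors and with either other filter on low counts. The difference of the responses cannot be had from the libraries of a contrast alone.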
